A study of Mus musculus with 8 samples.

Results

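The 39 genes described here mark excitatory neurons of the cerebral cortex and the cortical layers in which these neurons sit. They were listed by symbol as known markers of the cortex, with earlier results of these data known, and no measured value enters the rule. They comprised 7 pan-excitatory genes, 12 upper-layer genes and 20 deep-layer genes, and the deep-layer genes were divided into 7 of layer 5, 9 of layer 6 and 4 of layer 6b. All 39 were found among the 53379 genes of the count table, and all 39 were among the 16914 genes with enough reads for a test. The samples were bulk RNA of the cingulate cortex from untreated male mice, with 4 WT (Mvp+/+) and 4 Mvp KO (Mvp-/-) samples. The Mvp KO line came from a single gene trap clone, with a cassette in the first intron of *Mvp* that is designed to end transcription early. The design applies to all cells and not to neurons alone, and some *Mvp* reads remained in Mvp KO, as given below. The mice were on a C57BL/6 background, and their age is not given in the sources used here. The study calls its replicates biological, and the labels number the samples without naming the mouse of each, so p-values measure the spread between these samples.

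Excitatory neurons of the cortex release glutamate, which vesicular glutamate transporters load into synaptic vesicles. Neurons of the upper layers mainly connect areas of the cortex with each other. Those of layer 5 project to the brainstem, spinal cord and other distant targets, those of layer 6 largely to the thalamus, and layer 6b is a thin sheet of neurons next to the white matter. Transcription factors such as *Cux2*, *Rorb*, *Fezf2*, *Bcl11b* and *Tbr1* set up these identities during development, and many of them stay expressed in the adult layer, so that their RNA serves as a layer marker. In bulk tissue, fewer cells of a layer and less RNA per cell cannot be told apart.

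WT replicate 4 stood apart from the other 7 samples. On the leading principal component of log2 CPM (counts of a gene per 1000000 counts of its sample, scaled with TMM factors) its score was 71.5, against -20.4 to -2.78 in the others, and this component held 46% of the variance. Total counts were between 28456504 and 42854368 per sample, so that counting error was small for nearly all of the 39 genes, the fewest being 23 to 65 counts per sample on *Nxph4*. *Mvp* itself (ENSMUSG00000030681) was at 6.81, 7.12, 7.89 and 5.49 CPM in WT replicates 1 to 4 and at 1.45, 1.44, 2.13 and 1.51 CPM in Mvp KO replicates 1 to 4, lower in each Mvp KO sample than in each WT sample. Its log2 fold change of -2.06 (standard error 0.186) had an adjusted p of 0.0162 by the quasi-likelihood test of edgeR, adjusted after Benjamini and Hochberg. Of 14 alternative fits, 8 did not pass *Mvp* at 0.05. These were the fits with the replicate block (adjusted p = 0.085), without WT replicate 1, 2 or 3 or Mvp KO replicate 1, 2 or 4 (0.0918 to 0.147), and without both samples numbered 2 (0.816), all by edgeR's test.

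Promoter sequence is shown for 3 of the genes in which a sample stood apart from the others of its genotype. *Slc17a7* was highest in WT replicate 4, whereas *Slc17a6* and *Tshz2* were highest in Mvp KO replicate 2. Each run gives the 250 bases before the RefSeq transcription start (GRCm38.p6), read 5′ to 3′ on the strand of the gene, and none of these bases lies in a GENCODE exon. They lie at chr7:45163671-45163920 (plus strand), chr7:51621580-51621829 (plus strand) and chr2:169632259-169632508 (plus strand), in the order printed. Capitals mark the E-box CANNTG, the letters that basic helix-loop-helix factors such as the products of *Neurod1*, *Neurod2* and *Neurod6* recognise.
Slc17a7: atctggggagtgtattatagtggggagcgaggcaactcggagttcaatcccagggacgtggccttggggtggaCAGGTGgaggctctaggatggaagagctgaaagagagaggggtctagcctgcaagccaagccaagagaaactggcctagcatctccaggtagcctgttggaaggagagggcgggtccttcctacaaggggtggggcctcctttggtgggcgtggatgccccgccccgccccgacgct
Slc17a6: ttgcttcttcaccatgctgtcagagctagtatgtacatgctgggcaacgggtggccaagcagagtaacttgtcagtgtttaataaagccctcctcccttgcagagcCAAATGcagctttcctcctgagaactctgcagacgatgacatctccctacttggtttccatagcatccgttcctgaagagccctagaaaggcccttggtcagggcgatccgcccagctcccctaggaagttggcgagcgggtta
Tshz2: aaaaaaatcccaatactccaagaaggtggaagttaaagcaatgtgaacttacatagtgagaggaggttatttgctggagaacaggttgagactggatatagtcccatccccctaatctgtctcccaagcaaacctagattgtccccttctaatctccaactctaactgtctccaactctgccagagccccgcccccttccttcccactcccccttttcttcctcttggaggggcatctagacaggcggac
The first 2 hold 1 E-box each, and the *Tshz2* run holds 0. GC content was 61.2% in the run of *Slc17a7*, 53.2% in that of *Slc17a6* and 48.8% in that of *Tshz2*. RefSeq promoters were matched to 27 of the 39 genes, and 15 of these 27 held an E-box, against 66.0% of 27025 promoters of the same length. The octamer ATGCAAAT, known for POU factors such as the products of *Pou3f1* and *Pou3f2*, was in 0 of the 27 and in 1.61% of all promoters. The letters AGGTCA, known for receptors of the family of *Rorb*, were in 2 of the 27 and in 13.8% of all, and the T-box letters GGTGTGA, for the family of *Tbr1*, were in 1 of the 27 and in 3.31% of all. Each motif was searched on both strands, and no motif contains another.

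Levels of the genes were compared per kilobase of exon, so that genes of different length could be set side by side. In WT, the median over the 39 genes was 7.87 CPM per kb. By the mean over all 8 samples, 27 of the 39 lay above the median of all genes tested. *Slc17a7*, the main vesicular glutamate transporter of the cortex, led with a mean of 341 CPM per kb. It was followed by *Lmo4* (104 CPM per kb), a transcription cofactor, *Mef2c* (69.0 CPM per kb), a transcription factor, and *Neurod6* (57.5 CPM per kb), a helix-loop-helix factor of excitatory neurons. The lowest were *Foxp2*, a forkhead factor of layer 6, at 0.81 CPM per kb and *Nxph4*, a secreted ligand of neurexins, at 0.714 CPM per kb. The highest of the 39 was thus 478 times the lowest. The median level of the 7 pan-excitatory genes was 13.6 CPM per kb, that of the 12 upper-layer genes 6.61 and that of the 20 deep-layer genes 8.23.

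**Figure D1:**
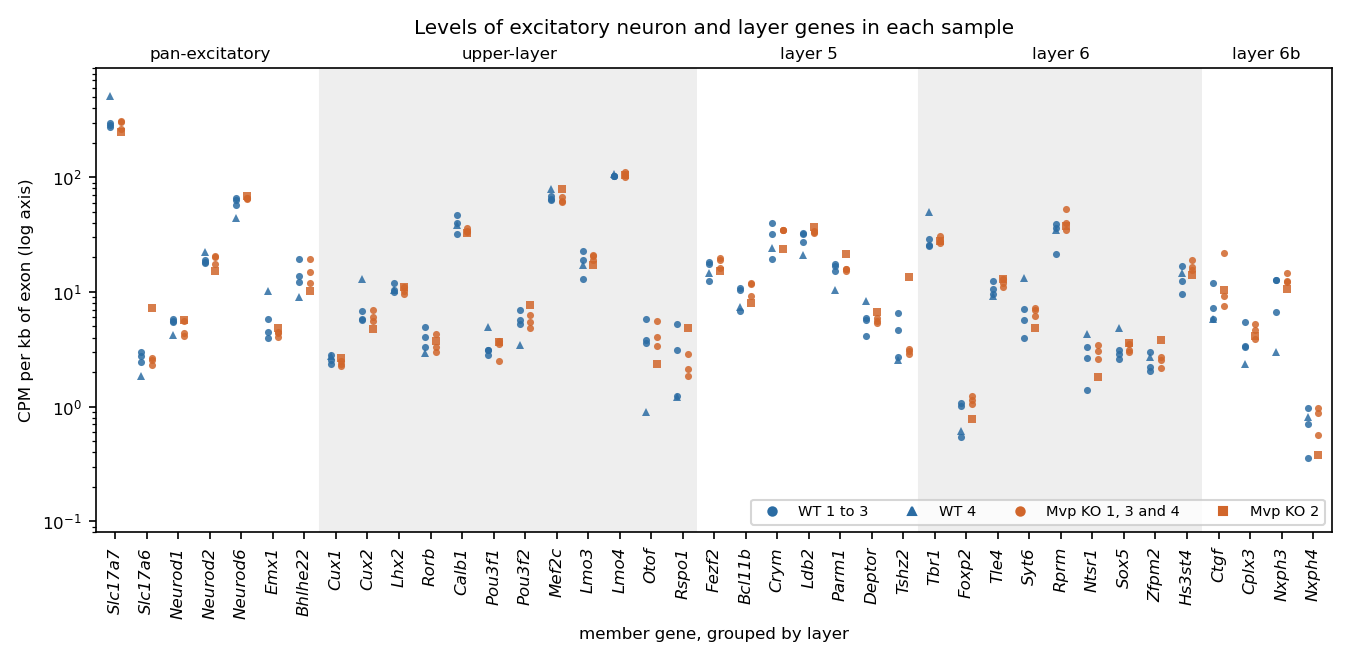
Level of each of the 39 genes in each of the 8 samples, in CPM per kb of exon on a log axis, grouped by layer from pan-excitatory genes on the left to layer 6b on the right. Blue marks are WT and orange marks Mvp KO, with WT replicate 4 drawn as triangles and Mvp KO replicate 2 as squares. *Slc17a7* is highest throughout, and the triangle lies away from the other blue marks in genes such as *Cux2*, *Otof*, *Tbr1* and *Nxph3*.

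The markers of the tissue were present in each sample. *Slc17a7* was between 1335 and 2731 CPM, whereas *Tcf7l2*, a factor of thalamic neurons, was between 2.16 and 3.25 CPM and *Drd2*, a dopamine receptor of striatal neurons, between 0.622 and 2.08 CPM. Of 23 further genes of excitatory cortical neurons, such as *Camk2a* and *Sv2b*, 23 were tested, and they summed to between 5677 and 6556 CPM in WT and between 5151 and 6536 CPM in Mvp KO.

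The question for the comparison was whether loss of *Mvp* goes along with another level of these genes in the cingulate cortex. At an adjusted p of 0.05 in the quasi-likelihood test of edgeR, with the Benjamini-Hochberg method applied to all genes, 0 of the 39 passed, a threshold that 0.00591% of all genes passed (*Mvp* alone). At an unadjusted p under 0.05 there were 0 of the 39, against 1.56% of all genes, and other settings of the test gave between 0 and 7, the 7 being without WT replicate 3. The smallest p was 0.0508, for *Ldb2*, and the smallest adjusted p among the 39 was 0.969. DESeq2's Wald test also passed 0 of the 39, and gave 2 (*Ldb2* and *Ctgf*) at an unadjusted p under 0.05. For 18 of the 39 genes the 95% interval stayed inside a 1.5-fold difference in both directions, compared with 64.5% of all genes. This held for 8 of the 12 upper-layer genes, 7 of the 20 deep-layer genes and 3 of the 7 pan-excitatory genes, and the intervals of the other 21 reached beyond 1.5-fold.

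The samples of the 2 genotypes did not overlap for 1 of the 39 genes, *Ldb2*, against 1.52% of all genes in either direction and 0.828% with Mvp KO higher. *Ldb2* (ENSMUSG00000039706, minus strand of chromosome 5, 44472132 to 44799680 in GRCm38) encodes a LIM-domain binding cofactor of layer 5 neurons. It was at 106, 91.2, 108 and 69.4 CPM in WT replicates 1 to 4 and at 113, 123, 111 and 110 CPM in Mvp KO replicates 1 to 4. The Mvp KO samples lay close together and just above the highest WT sample, and WT replicate 4 was well below the rest. Its mean was 93.6 ± 17.7 CPM in WT and 114 ± 5.84 CPM in Mvp KO (SD, n = 4 each), a log2 fold change of 0.29 with a standard error of 0.128. The adjusted p was 0.969 in edgeR's fit.

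Among the pan-excitatory genes, 3 of 7 were higher in Mvp KO by the sign of the fold change, against 50.0% of all genes, and the median log2 fold change was -0.07. *Slc17a7* (ENSMUSG00000070570, chromosome 7, 45163949 to 45176142) was at 1540, 1485, 1599 and 2731 CPM in WT replicates 1 to 4 and at 1417, 1335, 1678 and 1636 CPM in Mvp KO replicates 1 to 4. WT replicate 4 was far above the other 7 samples, among which the genotypes overlapped. The log2 fold change was -0.28 (standard error 0.194, 95% interval -0.72 to 0.16). *Neurod6* was at 136, 122, 142 and 94.2 CPM in WT and at 138, 147, 143 and 141 CPM in Mvp KO, again with WT replicate 4 apart, here as the lowest sample. *Emx1*, a homeobox gene of the dorsal forebrain, was at 8.67, 12.8, 9.85 and 22.4 CPM in WT and at 9.73, 10.5, 8.92 and 9.65 CPM in Mvp KO. Its log2 fold change of -0.47 (standard error 0.268) was the most negative of the 39 genes, with WT replicate 4 at 2.3 times the median of the other 7 samples. *Neurod1*, *Neurod2* and *Bhlhe22*, which encode further helix-loop-helix factors, had log2 fold changes of -0.10, -0.07 and 0.05.

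*Slc17a6*, the glutamate transporter used mainly by neurons outside the cortex, was described after its values had been seen. It was at 13.3, 16.3, 14.8 and 10 CPM in WT and at 14.3, 38.9, 12.4 and 13.7 CPM in Mvp KO. Only Mvp KO replicate 2 lay apart, and its log2 fold change of 0.54 (standard error 0.362) became -0.02 without that sample. The 6 markers of thalamic neurons, which use this transporter, summed to 163 CPM in Mvp KO replicate 2 and 160 CPM in WT replicate 2, against 102 to 139 CPM in the other 6 samples. *Rora* alone made this difference, with 115 and 109 CPM in these samples. The other 5 markers summed to 48.5 CPM in Mvp KO replicate 2, within the 39.1 to 54.5 CPM of all samples. The part of thalamic tissue in the level of *Slc17a6* was not tested.

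Among the upper-layer genes, 5 of 12 were higher in Mvp KO by sign, against 50.0% of all genes. Their median log2 fold change was -0.03, with a range from -0.43 to 0.18. *Lmo4* varied least of the 39 genes, with an SD within genotypes of 0.0469 on the log2 scale. It was at 359, 363, 361 and 380 CPM in WT and at 391, 371, 356 and 372 CPM in Mvp KO, and the groups overlapped. Its log2 fold change was 0.03, with a 95% interval from -0.11 to 0.17. *Mef2c* was at 987, 1080, 1024 and 1246 CPM in WT and at 966, 1243, 1053 and 974 CPM in Mvp KO. Each genotype had 1 sample above the others, WT replicate 4 and Mvp KO replicate 2. *Calb1*, which encodes the calcium-binding protein calbindin, was at 225, 193, 154 and 186 CPM in WT and at 166, 158, 160 and 174 CPM in Mvp KO. The 4 Mvp KO samples lay within the lower part of the WT range, and the log2 fold change was -0.20 (standard error 0.107, 95% interval -0.44 to 0.04).

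*Cux2*, a homeobox factor of the upper layers, was at 58.7, 69.3, 57.7 and 132 CPM in WT and at 56.0, 48.4, 61.0 and 70.0 CPM in Mvp KO. WT replicate 4 lay far above the rest, and the other WT samples lay inside the range of the Mvp KO samples. The log2 fold change was -0.43 with a standard error of 0.259, and -0.07 without WT replicate 4. Its relative *Cux1*, with 47.0 to 56.6 CPM in WT and 45.4 to 52.7 CPM in Mvp KO, had no such sample, and its log2 fold change was -0.10 (95% interval -0.29 to 0.08). The other upper-layer transcription factors *Lhx2*, *Rorb*, *Pou3f1* and *Pou3f2* had log2 fold changes of -0.03, -0.07, -0.05 and 0.18, and the cofactor *Lmo3* one of 0.11. *Otof*, which encodes the calcium sensor otoferlin, and *Rspo1*, which encodes a secreted activator of WNT signalling, had the widest intervals of the upper-layer genes. Their log2 fold changes were 0.12 (95% interval -0.93 to 1.17) and 0.10 (-1.02 to 1.22), and *Otof* was at 7.08 CPM in WT replicate 4 against 18.6 to 46.2 CPM in the others.

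Among the deep-layer genes, 14 of 20 were higher in Mvp KO by sign, against 50.0% of all genes. Their median log2 fold change was 0.20, with a range from -0.25 to 0.67. By layer, 6 of 7 genes of layer 5 (median 0.18), 5 of 9 of layer 6 (0.17) and 3 of 4 of layer 6b (0.40) were higher. WT replicate 4 was the highest sample for 5 of the 6 deep-layer genes that were lower in Mvp KO, namely *Deptor*, *Tbr1*, *Syt6*, *Ntsr1* and *Sox5*. Without WT replicate 4, 20 of 20 were higher by sign, against 51.7% of all genes, and the median was 0.17. With both samples numbered 2 left out, a choice made after seeing the data, 12 of 20 were higher and the median was 0.13. None passed the threshold in either fit, and genes of a layer are not independent of each other.

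**Figure D2:**
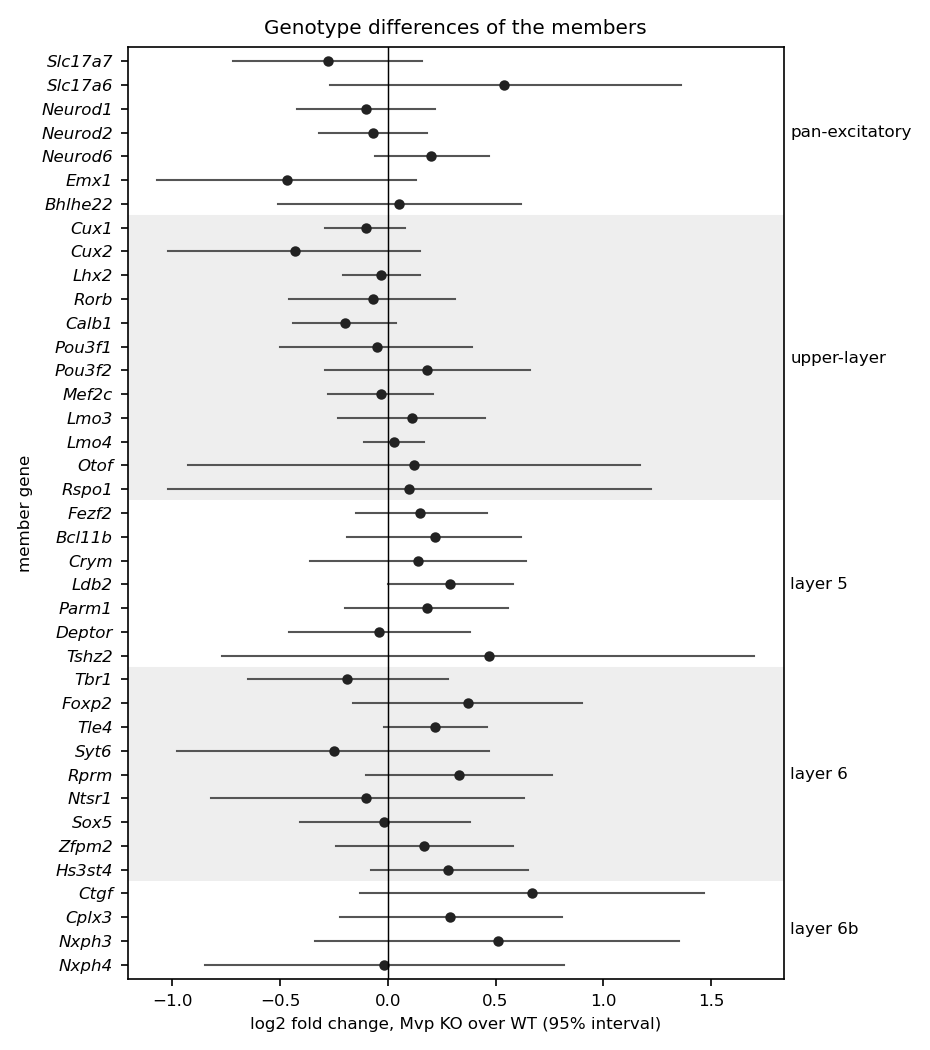
Log2 fold change of each of the 39 genes, Mvp KO over WT, with its 95% interval from the fit in edgeR (n = 4 per genotype), ordered by layer. Values right of the vertical line at 0 are higher in Mvp KO. The intervals of all 39 genes reach 0, and 14 of the 20 points of layers 5, 6 and 6b lie to its right.

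In layer 5, *Crym*, which encodes a thyroid hormone binding protein, was at 136, 65.1, 109 and 82.0 CPM in WT and at 118, 79.8, 117 and 117 CPM in Mvp KO. Replicate 2 was the lowest sample of each genotype, and the groups overlapped. *Bcl11b*, the transcription factor CTIP2 of neurons that project below the cortex, was at 87.7, 55.5, 83.8 and 60.0 CPM in WT and at 75, 65.4, 97.3 and 95.8 CPM in Mvp KO. Both genotypes spread over a similar range, and the log2 fold change was 0.22 (95% interval -0.19 to 0.62). *Fezf2*, which specifies the same neurons, had a log2 fold change of 0.15, *Parm1*, which encodes a mucin-like membrane protein, one of 0.18, and *Deptor*, an inhibitor of mTOR, one of -0.04. *Tshz2*, a zinc finger homeobox gene, was described after its values had been seen. It was at 20.9, 51.3, 36.0 and 19.9 CPM in WT and at 25.0, 106, 24.0 and 22.5 CPM in Mvp KO. Replicate 2 was again the sample that stood out, here as the highest of each genotype, and the log2 fold change of 0.47 became -0.43 without Mvp KO replicate 2. Of the exonic bases of *Tshz2*, 67.5% are overlapped by a gene on the opposite strand, and the strand setting of the counting is not given in the sources used here.

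In layer 6, *Rprm*, which encodes the cell cycle regulator reprimo, was at 52.8, 31.4, 57.2 and 50.8 CPM in WT and at 76.5, 55.4, 58.3 and 50.3 CPM in Mvp KO. WT replicate 2 was lowest and Mvp KO replicate 1 highest, and the other 6 samples overlapped. The log2 fold change was 0.33 (95% interval -0.10 to 0.76). *Tbr1* was at 141, 137, 159 and 274 CPM in WT and at 148, 154, 170 and 152 CPM in Mvp KO. WT replicate 4 was 1.81 times the median of the other samples, and the log2 fold change of -0.19 became 0.10 without it. *Tle4*, a corepressor of neurons that project to the thalamus, was at 60.3, 54.7, 71.4 and 52.4 CPM in WT and at 73.3, 74.3, 68.0 and 62.5 CPM in Mvp KO. Only WT replicate 3 reached into the range of the Mvp KO samples, and the log2 fold change was 0.22 (standard error 0.105, 95% interval -0.02 to 0.46).

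*Hs3st4*, which encodes a heparan sulfate sulfotransferase, was at 39.9, 30.8, 53.6 and 46.5 CPM in WT and at 61.0, 44.9, 52.2 and 49.6 CPM in Mvp KO. WT replicates 1 and 2 lay below all Mvp KO samples and WT replicates 3 and 4 among them. The log2 fold change was 0.28 (standard error 0.163). The remaining genes of layer 6 had log2 fold changes of 0.37 for *Foxp2*, 0.17 for the GATA cofactor *Zfpm2*, -0.02 for the SOX factor *Sox5*, -0.10 for the neurotensin receptor *Ntsr1* and -0.25 for the synaptotagmin *Syt6*. All of their 95% intervals included 0.

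In layer 6b, *Ctgf* (listed as *Ccn2* in the annotation, ENSMUSG00000019997, chromosome 10, 24595442 to 24598683) encodes a matricellular growth factor. It was at 20.8, 16.6, 34.4 and 16.7 CPM in WT and at 62.4, 30.0, 26.3 and 21.8 CPM in Mvp KO. Mvp KO replicate 1 was highest by far, and the other 3 Mvp KO samples lay inside the WT range. Its log2 fold change of 0.67 (standard error 0.355, 95% interval -0.13 to 1.47) was the largest of the 39 genes. *Nxph3*, which encodes a neurexin ligand like *Nxph4*, was at 26.5, 14.0, 26.5 and 6.29 CPM in WT and at 30.6, 22.2, 25.4 and 25.9 CPM in Mvp KO. WT replicates 2 and 4 were below all others, and the log2 fold change was 0.51 (standard error 0.375). *Cplx3*, which encodes a complexin of the synaptic release machinery, had a log2 fold change of 0.29 and *Nxph4* one of -0.02.

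Layer 6b borders the white matter, and markers of oligodendrocytes, the myelin-forming cells, were read beside it. The summed level of 8 such markers was 1744, 2184, 2820 and 1332 CPM in WT and 5710, 3902, 1962 and 1537 CPM in Mvp KO. None of the 8 passed the threshold. By sign, 8 of 8 were higher in Mvp KO, against 50.0% of all genes, and their median log2 fold change was 0.67. Mvp KO replicate 1 had the highest sum of these markers and also the highest *Ctgf*. It had the highest mean log2 CPM of the 4 layer 6b genes (3.90, against 3.11 to 3.45 in the other Mvp KO samples and 2.51 to 3.66 in WT). In WT, replicate 3 was highest in both, with a layer 6b mean of 3.66. Mvp KO replicate 2, with the next highest sum (3902 CPM), had the lowest layer 6b mean of the Mvp KO samples (3.11). Among the Mvp KO samples it was lowest for *Nxph3* (22.2 CPM) and *Nxph4* (0.638 CPM), but next highest for *Ctgf* (30.0 CPM). WT replicate 4 had the lowest sum (1332 CPM) and the lowest layer 6b mean (2.51). WT replicate 2, with the next highest sum in WT (2184 CPM), had the lowest *Ctgf* (16.6 CPM). The part of white matter in these levels was not tested.

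To compare upper with deep layers, the log2 CPM of the genes was averaged in each sample. The mean of the 12 upper-layer genes was 5.93, 6.03, 5.88 and 5.74 in WT and 5.84, 5.96, 5.87 and 5.97 in Mvp KO. The mean of the 20 deep-layer genes was 5.05, 4.73, 5.30 and 4.99 in WT and 5.34, 5.18, 5.25 and 5.13 in Mvp KO. The upper-layer means of Mvp KO lay inside the range of WT, whereas 3 of the 4 WT samples had a lower deep-layer mean than all Mvp KO samples and WT replicate 3 lay among them. The difference of upper minus deep was 0.87, 1.30, 0.58 and 0.75 in WT and 0.50, 0.78, 0.62 and 0.84 in Mvp KO. WT replicate 2 had the largest and Mvp KO replicate 1 the smallest difference, and the other 6 samples overlapped. The mean difference was 0.88 ± 0.305 in WT and 0.69 ± 0.155 in Mvp KO (SD, n = 4 each), a gap of -0.19 between genotypes. The gap was smaller than the SD of the WT samples, which gives the spread of samples and not the error of the gap. This gap was -0.05 without WT replicate 2 and -0.34 with medians over genes in place of means. No p-value is given for these averages.

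**Figure D3:**
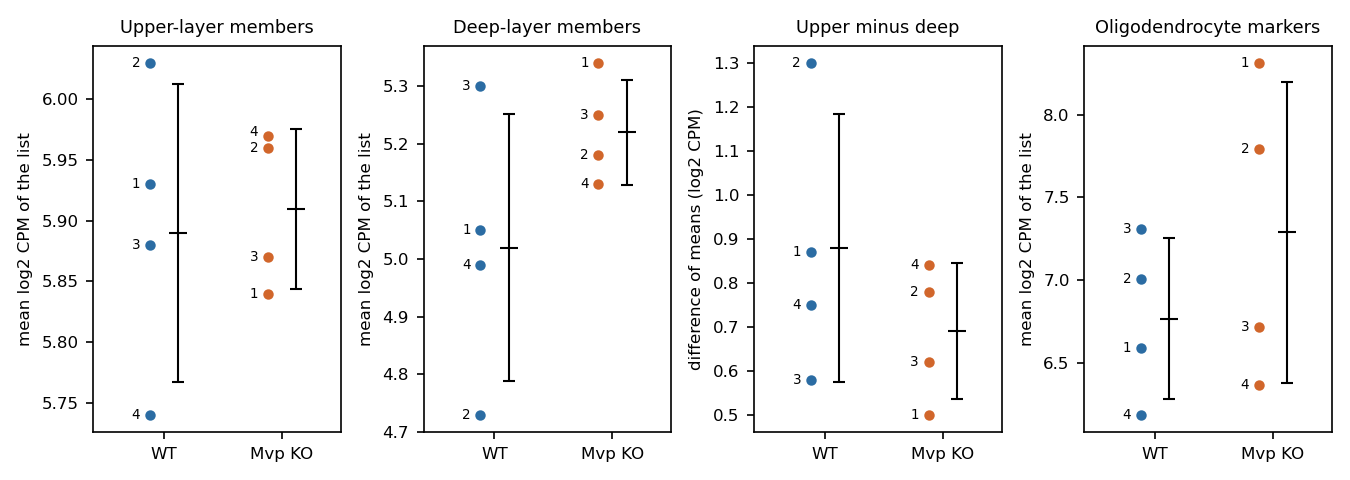
Mean log2 CPM per sample of the 12 upper-layer genes, of the 20 deep-layer genes, their difference, and the mean of 8 oligodendrocyte markers, each panel with its own axis. Points are samples labelled with their replicate number, and bars give the mean ± SD of 4 samples per genotype. WT replicate 2 has the lowest deep-layer mean and the largest difference (1.30), and Mvp KO replicate 1 has the highest oligodendrocyte mean (8.31).

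The spread between samples was wider for these genes than for most others. The median SD within genotypes was 0.315 on the log2 scale, against 0.20 over all genes tested. It was 0.27 over the upper-layer genes and 0.334 over the deep-layer genes, and it was highest for *Otof* (0.907), *Tshz2* (0.89) and *Rspo1* (0.849).

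WT replicate 4 was the highest of the 8 samples for 11 of the 39 genes, against 29.2% of all genes, and the lowest for 13, against 32.5%. The sum, 24 of 39, was close to the 61.7% of all genes for which it was highest or lowest. Its distance to the median of the other samples was over 1.5-fold for 18 of the 39, against 23.6% of all genes. The 11 included *Slc17a7*, *Neurod2*, *Emx1*, *Cux2*, *Pou3f1*, *Mef2c*, *Deptor*, *Tbr1*, *Syt6*, *Ntsr1* and *Sox5*, and thus genes of every layer but 6b. The 13 were *Slc17a6*, *Neurod6*, *Bhlhe22*, *Rorb*, *Pou3f2*, *Otof*, *Rspo1*, *Ldb2*, *Parm1*, *Tshz2*, *Tle4*, *Cplx3* and *Nxph3*. Genes that mark the same layer thus lay on opposite sides in this sample, as *Cux2* and *Rorb* did in the upper layers and *Tbr1* and *Tle4* in layer 6. The same sample had the highest mean log2 CPM of 10 immediate early genes, the first genes to respond to neuronal activity (7.31, against 5.14 to 6.65 in the other samples). It also had the highest mean of 10 interneuron markers (6.97, against 6.14 to 6.43), although *Vip* and *Adarb2* of that list were lowest there. The mean of 8 striatal markers was highest in it too (4.14, against 3.30 to 3.68), with *Adora2a*, an adenosine receptor, at 18.4 CPM against 1.80 to 2.64 CPM, and the mean of 8 oligodendrocyte markers was lowest (6.19). Whether these differences bear on the layer genes was not tested.

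WT replicate 2 was the highest or lowest sample for 15 of the 39 genes, against 15.3% of all genes, and 11 of these 15 were deep-layer genes. For 10 of the 39, against 11.0% of all genes, both samples numbered 2 lay outside the range of the other 6 on the same side. *Slc17a6*, *Pou3f2*, *Rspo1*, *Parm1* and *Tshz2* were higher in both, against 6.02% of all genes, and *Lmo3*, *Crym*, *Syt6*, *Ntsr1* and *Nxph4* were lower in both, against 5.01%. Mvp KO replicate 2 was the highest or lowest sample for 11 of the 39, against 28.4% of all genes. The 10 genes in which both samples lay outside came from every group, with 1 pan-excitatory gene, 3 of the upper layers, 3 of layer 5, 2 of layer 6 and 1 of layer 6b. The labels do not say what, if anything, samples of the same number share.

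**Figure D4:**
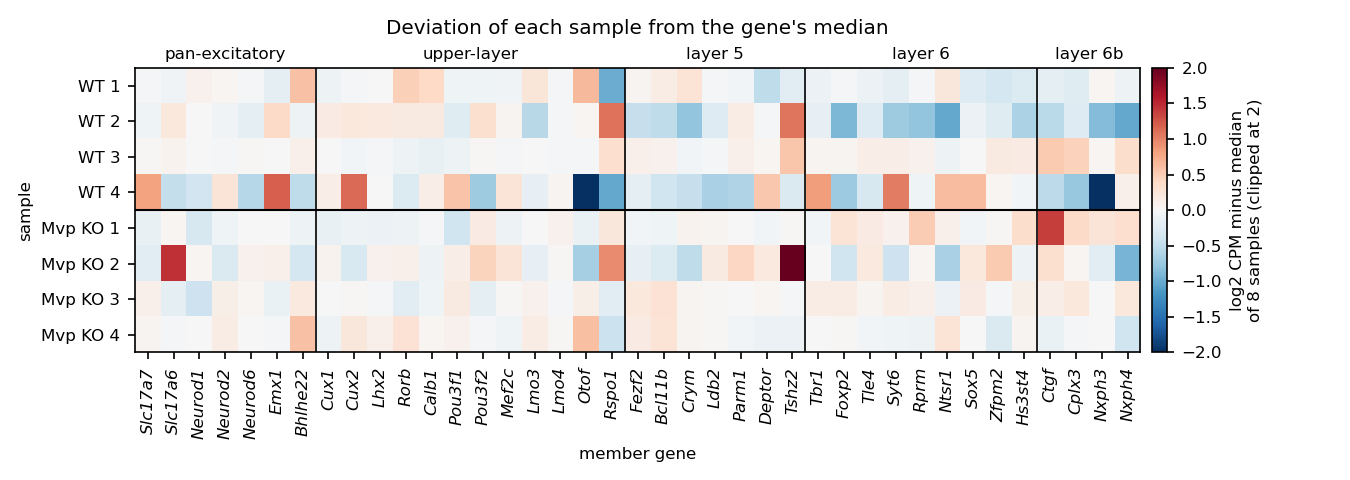
Deviation of each sample (vertical) from the median of the 8 samples for each of the 39 genes (horizontal), in log2 CPM, with red above and blue below the median and colours clipped at 2. The line across separates WT from Mvp KO and the upright lines separate the layer groups. The strongest colours are in WT replicate 4, WT replicate 2 and Mvp KO replicate 2, for example 2.11 for *Tshz2* in Mvp KO replicate 2 and -2.04 for *Otof* in WT replicate 4.

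Other cell types were read with lists of their markers, and no gene of these lists passed the threshold. The 10 interneuron markers summed to between 1288 and 2563 CPM in WT and between 1187 and 1348 CPM in Mvp KO, the highest value being WT replicate 4. The 8 astrocyte markers summed to between 5557 and 5922 CPM in WT and between 4786 and 5681 CPM in Mvp KO, the 7 microglial markers to between 355 and 398 and between 350 and 364 CPM, and the 6 endothelial markers to between 172 and 255 and between 171 and 243 CPM. Sums of striatal markers were between 147 and 223 CPM in WT and between 151 and 157 CPM in Mvp KO, those of hippocampal markers between 159 and 364 and between 128 and 200 CPM. *Wfs1*, which is also among the 23 further excitatory genes, made up most of the latter (312 CPM in WT replicate 4), and the other 5 hippocampal markers summed to between 48.4 and 56.1 CPM. By sign, 0 of 10 interneuron and 0 of 7 microglial markers were higher in Mvp KO, against 50.0% of all genes. The same held for 2 of 8 astrocyte, 1 of 6 endothelial, 3 of 8 striatal and 2 of 5 tested hippocampal markers. The median log2 fold change was -0.32 for the interneuron and -0.12 for the microglial markers. No marker of these lists was at 0 in all samples. Their part in the levels of the layer genes was not tested.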

How the data were processed

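RNA of the cingulate cortex (200 ng, RNA integrity number of at least 8) from 4 WT and 4 Mvp KO males was made into stranded mRNA libraries for single-end sequencing. Reads were trimmed by the authors with cutadapt 1.10, freed of ribosomal and spike-in sequences with Bowtie2 2.2.8 and mapped onto mm10 with STAR 2.5.3a, and the deposited values are raw counts per gene of Ensembl release 91 from HTSeq 0.6.1p1. The counting mode and strand setting are not given in the sources used here, and reads of overlapping genes may have been left out.

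Symbols and coordinates came from GENCODE M21 (GRCm38), which held 53274 of the 53379 identifiers, and 1 symbol (*Ctgf*) was matched through RefSeq synonyms. The analysis used edgeR 4.0.16 in R 4.3.3, with filterByExpr (minimum count 10, minimum total count 15), TMM factors, and a robust quasi-likelihood test with genotype as the single term, with p-values adjusted by the Benjamini-Hochberg method across the 16914 genes that passed the filter and called at 0.05. Log2 CPM used a prior count of 2, and floors or intervals from counts cover counting error only. The alternatives were DESeq2's size factors, DESeq2 1.42.0, limma 3.58.1 voom with sample weights, no filter, the replicate number as a block, and leaving out each sample. Samples of a genotype differed from each other by more than counting noise (chi-square per gene 7 to 95.6).

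Genes with a value in each sample were, per layer, the 2 with the highest level per kb in WT, the 2 with the smallest p and any past the threshold. *Slc17a6*, *Tshz2* and other genes in which a sample stood apart were added after seeing the data, and *Tcf7l2*, *Drd2*, *Rora*, *Adora2a*, *Vip*, *Adarb2*, *Wfs1*, *Cdh13* and *Lamp5* were named outside that rule too. The 39 genes, their layers and the marker lists were chosen with earlier results of these data known. The RNA reads were not analysed here.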

Additional observations from a re-analysis of the deposited data

Results flagged for a closer look

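In each genotype the highest and the lowest of the 4 samples were compared with the others by Dixon's ratio of the gap to the range at the 95% level. Of 86 sets of 4 values, from the 39 genes and 4 averages over genes in each genotype, 8 went past it. For independent sets chance gives about 1 in 20, or 4.3, but these sets share the same 8 samples. The share over all genes was not computed, so the count is not read as a result about the 39 genes. All 8 were in 2 samples, 4 in WT replicate 4 and 4 in Mvp KO replicate 2. Over all genes, WT replicate 4 was highest or lowest of the 8 samples in 61.7% and Mvp KO replicate 2 in 28.4%.

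WT replicate 4 was the high sample in each of its genes. *Slc17a7* was at 2731 CPM there and at 1485 to 1599 CPM in the other WT samples, *Cux2* at 132 against 57.7 to 69.3 CPM, *Pou3f1* at 19 against 10.8 to 12 CPM, and *Tbr1* at 274 against 137 to 159 CPM. The ratios were 0.909, 0.843, 0.851 and 0.844. They include the main vesicular glutamate transporter of the cortex, upper-layer factors and a layer 6 factor.

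Mvp KO replicate 2 was the high sample for *Slc17a6* (38.9 CPM, against 12.4 to 14.3 in the other Mvp KO samples), *Parm1* (108, against 77.8 to 80.9) and *Tshz2* (106, against 22.5 to 25.0), and the low sample for *Crym* (79.8, against 117 to 118). The ratios were 0.926, 0.896, 0.970 and 0.973. In WT replicate 2 these genes deviated from the median of all samples in the same direction as in Mvp KO replicate 2, for example *Tshz2* at 51.3 CPM and *Crym* at 65.1 CPM. The causes of these values were not tested.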

How the results depend on the processing

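The number of the 39 genes past the threshold was 0 under each alternative, a threshold of 0.1 included, and the smallest adjusted p of a member over all of them was 0.846. Over 546 fold changes from 14 alternatives, 493 had the direction of the reported value and 53, from 21 genes, did not. The number at an unadjusted p under 0.05 was 0 as reported, 1 with DESeq2's size factors, 2 with DESeq2's Wald test, 1 with voom, 2 without a filter and 4 with the replicate number as a block (*Ldb2*, *Foxp2*, *Tle4* and *Hs3st4*). It was 0 to 7 with 1 sample left out, the 7 being without WT replicate 3 (*Neurod6*, *Calb1*, *Ldb2*, *Tle4*, *Hs3st4*, *Ctgf* and *Cplx3*), and 2 without WT replicate 1, WT replicate 4 or Mvp KO replicate 4. Of the 20 deep-layer genes, 12 to 20 were higher in Mvp KO by sign over the alternatives, with 18 under voom. The number with an interval within 1.5-fold was 29 with voom, and the median of the pan-excitatory genes was 0.042 with voom, which gave WT replicate 4 a weight of 0.163 and the other samples 0.609 to 3.09.

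With voom, the log2 fold change reversed to 0.058 for *Neurod2*, 0.19 for *Pou3f1*, -0.07 for *Pou3f2*, 0.016 for *Mef2c*, -0.26 for *Rspo1*, -0.012 for *Parm1*, 0.085 for *Deptor*, -0.23 for *Tshz2*, 0.072 for *Tbr1*, 0.12 for *Syt6*, 0.18 for *Ntsr1*, 0.17 for *Sox5* and 0.015 for *Nxph4*. With the replicate block it reversed to 0.0055 for *Deptor* and 0.024 for *Sox5*. Without both samples numbered 2, chosen after seeing the data, it reversed to 0.0019 for *Lhx2*, -0.10 for *Tshz2* and -0.064 for *Zfpm2*. With 1 sample left out, ranges that crossed 0 were *Slc17a6* -0.016 to 0.71, *Neurod2* -0.14 to 0.0049, *Bhlhe22* -0.14 to 0.27, *Lhx2* -0.06 to 0.027, *Rorb* -0.18 to 0.077, *Pou3f1* -0.15 to 0.16, *Mef2c* -0.12 to 0.043, *Lmo3* -0.016 to 0.24, *Otof* -0.20 to 0.47, *Rspo1* -0.25 to 0.66, *Crym* -0.013 to 0.34, *Deptor* -0.19 to 0.17, *Tshz2* -0.43 to 0.79, *Tbr1* -0.30 to 0.10, *Syt6* -0.47 to 0.17, *Ntsr1* -0.34 to 0.16, *Sox5* -0.12 to 0.21, *Zfpm2* -0.014 to 0.27 and *Nxph4* -0.25 to 0.18. The causes of these reversals were not tested.

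The gap of upper minus deep between genotypes was -0.15 with narrower lists of 7 upper and 16 deep genes. The mean of same-numbered differences (replicate block) equals the gap of -0.19 by arithmetic, so it is no separate check. The numbers were not taken to pair the samples: the correlations of deviations of same-numbered samples were 0.05, 0.29, -0.0067 and 0.05 for replicates 1 to 4. *Nxph4* had the fewest reads, with 23 to 65 counts per sample.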

Other observations

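Of 23 further genes of excitatory cortical neurons, 0 passed the threshold and 0 had an unadjusted p under 0.05 in edgeR's quasi-likelihood test. By sign, 11 were higher in Mvp KO, against 50.0% of all genes. The median log2 fold change was -0.01, with a range from -0.65 to 0.42. For 2 of these genes the values in the samples numbered 2 are given. How many of the 23 had both these samples outside the other 6 was not counted. Over all genes this was 11.0%, on the same side. *Cdh13*, which encodes a cadherin, was at 65.8 CPM in WT replicate 2 and 68.2 CPM in Mvp KO replicate 2, against 97.8 to 166 CPM in the other samples. *Lamp5*, a membrane protein of upper-layer and some inhibitory neurons, was at 293 and 288 CPM in these samples, against 74.0 to 212 CPM in the others. Both were picked after their values had been seen.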
